A study of Mus musculus with 2 samples.

Results

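The mitochondrial ribosomal proteins are the protein parts of the ribosome that works inside mitochondria. They were taken as every probe set of the array whose single annotated gene symbol begins with Mrpl or Mrps followed by a digit. This rule found 156 of the 34945 probe sets with 1 gene symbol, and these named 76 of 18193 genes. The rule used names only and no measured value.

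The series compared 2 states of whole liver in BALB/c nude mice, which lack a thymus and so have few mature T cells. The states were day 0 and day 3 of a partial hepatectomy, in which surgeons take away 70% of the organ. The remaining lobes of a rodent liver regrow by cell division in the days after this operation. The submitters label day 0 the control and day 3 active regeneration, and messenger RNA was read on an Affymetrix mouse expression array. There was 1 array for each day, and whether a sample came from 1 mouse or a pool was not stated in the labels. Both groups share the strain and the tissue, and a sham operation was not analysed here. A single array a day gives no spread over samples and allows no test of the days, so the number of arrays limits the precision. Day, surgery and animal cannot be told apart. In whole liver, fewer cells of a type and less RNA per cell also cannot be told apart.

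The mitochondrial ribosome translates the few proteins encoded in mitochondrial DNA, all of them core subunits of the respiratory chain or of ATP synthase. Its RNA comes from mitochondrial DNA, but all of its proteins are encoded in the nucleus, made in the cytosol and imported. Part of them descend from bacterial ribosomal proteins and the rest were added during the evolution of mitochondria. Liver cells are rich in mitochondria, and dividing cells need new mitochondrial ribosomes as their mitochondria multiply.

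Values are signals of probe sets, sets of short probes for 1 transcript, on a linear scale of arbitrary units. A gene was represented by its main probe set, the 1 with the highest mean log2 signal, and folds are day 3 against day 0. A log2 ratio of 1 is a 2-fold difference. Signals under a common floor of 68.3, the higher of both array medians, were set to it. Of the 156 probe sets, 129 lay above the floor on both arrays, 7 on 1 array and 20 on neither. The main probe set of all 76 genes lay above it on both arrays, with signals from 551.8 to 9439 at day 0 and from 533.8 to 9601 at day 3, so every fold at the gene level is measured on both sides.

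The arrays differed in more than the members. Bacterial poly-A RNAs are spiked in ahead of labelling to follow its reach, and their 3′ over 5′ signal ratio was 1.32 to 2.90 times greater at day 3, in 8 of 8 pairs. These pairs are not independent, since dap, lys, phe and thr RNA were each read by more than 1 pair. The liver's own control transcripts differed among themselves, with 3 of 5 greater at day 3, from 0.594 times for pyruvate carboxylase and 0.988 for 18S RNA to 1.91 for Gapdh, 2.09 for beta-actin and 22.2 for the transferrin receptor. Where the members' probe sets lie along their transcripts was not analysed, and the part of this balance in the values below was not tested. Of the hepatocyte markers, 5 of 5 measured were above the floor, with a summed signal of 240028 at day 0 and 182938 at day 3. For Kupffer cells, the liver's macrophages, all 5 of 5 were above the floor and their summed signal went from 5145 to 15597. This sum differed mostly through Cd5l, from 2499 to 7812, and Marco, from 366.5 to 3426. Clec4f, Vsig4 and Adgre1 had log2 ratios of 0.90, 0.93 and 1.10. Neutrophil markers (3 of 3) summed to 258.7 and 1246, cholangiocyte markers (4 of 4) to 274.8 and 1042 and stellate cell markers (4 of 4) to 9145 and 16806. Of the neutrophil markers, S100a8 and S100a9 had log2 ratios of 3.10 and 2.32, and Elane 0.34. The stellate sum differed mostly through Reln, from 3357 to 9454. Lrat and Dcn had log2 ratios of 0.28 and 0.34, and Des, at 21.6 and 98.9, was above the floor at day 3 only. Sinusoidal endothelial markers (4 of 4 above the floor) had a lower sum at day 3, 4524 against 6522, although Lyve1 among them went from 220.2 to 421.1. The sum was also lower for erythroid markers (1 of 2 above the floor), at 8969 and 2840. The T cell markers Cd3e, Cd3g and Cd3d were under the floor on both arrays, and 2 of 3 B cell markers were above it on an array, summing to 257.0 and 133.3. The part of these shifts in the members' values was not tested.

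Transcripts of the mitochondrial ribosome stood close to their day 0 signal at day 3. Of the 76 genes, 74 were under 2-fold different, 2 were at least 2-fold higher and none was 2-fold lower. Over all 12634 genes analysed, 12.9% were at least 2-fold higher and 5.62% at least 2-fold lower. Members made up 2.63% and 0% on the same counts. The 2 were Mrps6, a protein of the small subunit, and Mrpl52, a protein of the large subunit. The members' median log2 ratio was −0.03 and that of all genes 0.08. Of the 76, 34 had a log2 ratio above 0 and 42 below, and 43 lay within 1.2-fold. The split of signs depends on the scaling. With the arrays scaled to the hybridisation spikes, RNAs added after labelling, 58 were above 0.

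**Figure D1:**
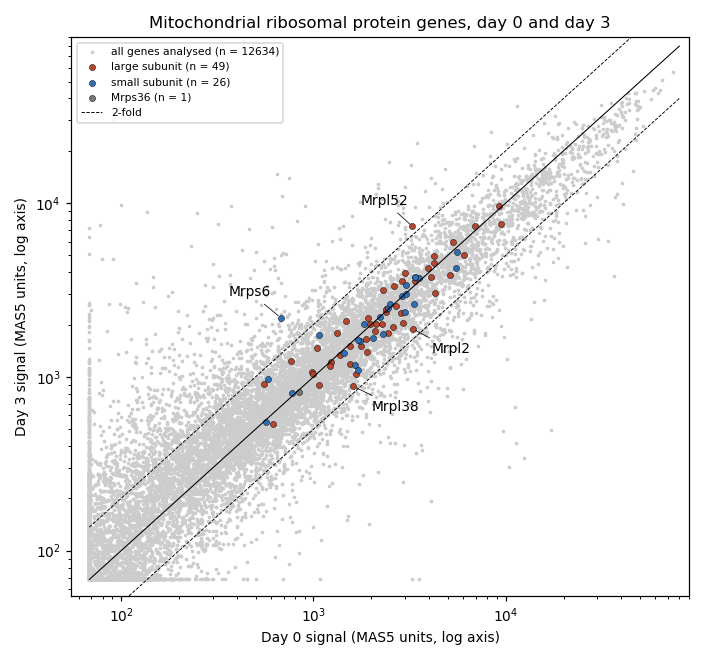
Signal of each gene's main probe set at day 0 (horizontal, log axis) against day 3 (vertical, log axis), both in MAS5 units, with 1 array per day. Grey points are all 12634 genes with signals under the floor set to 68.3, coloured points are the 76 members, the solid line is equality and dashed lines are 2-fold; only Mrps6 and Mrpl52 of the members lie past a dashed line.

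The members also varied little among themselves. Their log2 ratios had an SD of 0.416 over 76 genes, from −0.87 for Mrpl38 to 1.70 for Mrps6, with quartiles of −0.28 and 0.14. Over all genes the SD was 0.893 and the quartiles were −0.32 and 0.56. Low signals are noisier, so the 5619 genes whose mean signal lay in the members' own range are the closer background. Of these, 8.10% were at least 2-fold higher and 6.12% at least 2-fold lower, and their SD was 0.831. A small spread was not particular to the members among the lists described below. The SD was 0.314 for respiratory chain and ATP synthase genes, 0.462 for the cytosolic ribosome, 0.473 for mitochondrial translation factors and 0.480 for ribosome assembly. It was wider, at 0.613, for mitochondrial DNA replication and transcription, and 0.675 for genes that charge mitochondrial transfer RNAs. At 1.5-fold, 6 members were higher and 4 lower, or 7.89% and 5.26%, where 24.0% and 14.2% of all genes and 17.9% and 14.8% of genes in the same range passed. No test of these differences was possible with 1 array a day.

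Most members had few probe sets: 34 of the 76 had 1, and Mrpl15 had the most with 8. At the level of probe sets, 3 of the 136 above the floor on an array were at least 2-fold higher and 2 at least 2-fold lower, where 11.2% and 6.07% of all probe sets passed. Of the members, 34 genes had 2 or more probe sets that cleared the floor on both arrays. For 18 of these all probe sets lay within 0.5 of each other in log2 ratio, and for 3 they lay over 1 apart. The difference between the main and the next probe set gave an SD of 0.284 per probe set for members and 0.435 for all 4380 genes with a pair. This SD describes probe sets on the same arrays and not animals.

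**Figure D2:**
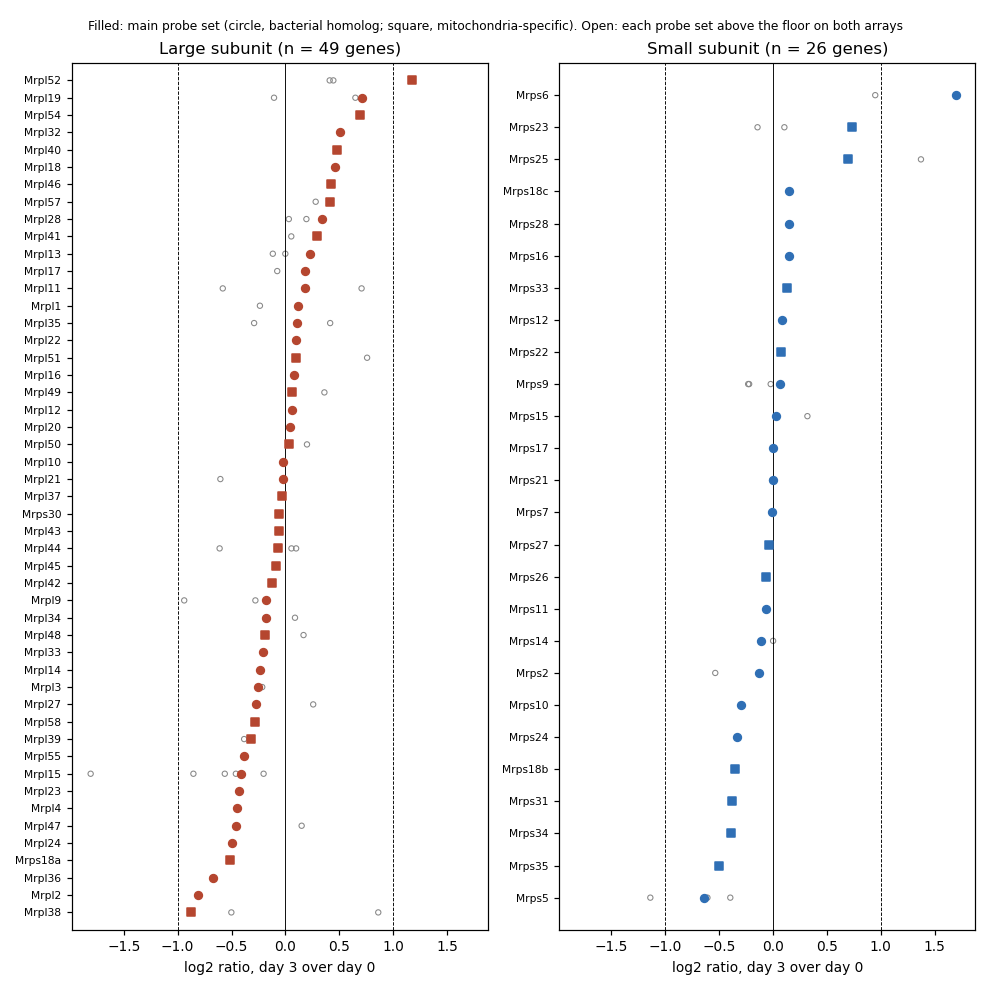
Log2 ratio, day 3 over day 0, of the 49 genes of the large subunit (left) and the 26 of the small subunit (right), sorted within each panel. Filled marks are main probe sets, circles for bacterial homologs and squares for proteins counted as mitochondria-specific, with Mrps18a and Mrps18b among the squares. Open circles are all probe sets that cleared the floor on both arrays, and dashed lines are 2-fold. Mrpl52 and Mrps6 are the filled marks past a dashed line, and the rest line up around 0.

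The sequences just before the transcription start are shown for the members that have a probe set at least 2-fold different and an entry in the RefSeq promoter table (GRCm38.p6): Mrps6, Mrpl52, Mrps25 and Mrps5. Each is the 250 bases before the annotated start, 5′ to 3′ in the direction of the gene. Capitals mark matches on either strand to CCGGAAG, the core of ETS factors such as GABPA, to AAGATGG of YY1, to GCATGCG of NRF1 and to GGGCGG of SP factors.
Mrps6, chr16:92058086-92058335, plus strand: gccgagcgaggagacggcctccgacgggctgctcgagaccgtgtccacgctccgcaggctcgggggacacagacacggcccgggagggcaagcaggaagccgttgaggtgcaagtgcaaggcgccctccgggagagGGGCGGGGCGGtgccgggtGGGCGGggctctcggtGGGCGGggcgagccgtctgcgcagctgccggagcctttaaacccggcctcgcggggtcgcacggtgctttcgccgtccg
Mrpl52, chr14:54426659-54426908, plus strand: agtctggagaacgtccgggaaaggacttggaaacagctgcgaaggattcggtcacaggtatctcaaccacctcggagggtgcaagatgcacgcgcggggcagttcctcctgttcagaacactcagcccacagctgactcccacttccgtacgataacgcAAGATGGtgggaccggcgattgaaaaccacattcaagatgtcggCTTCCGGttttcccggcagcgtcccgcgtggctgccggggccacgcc
Mrps25, chr6:92184024-92184273, minus strand: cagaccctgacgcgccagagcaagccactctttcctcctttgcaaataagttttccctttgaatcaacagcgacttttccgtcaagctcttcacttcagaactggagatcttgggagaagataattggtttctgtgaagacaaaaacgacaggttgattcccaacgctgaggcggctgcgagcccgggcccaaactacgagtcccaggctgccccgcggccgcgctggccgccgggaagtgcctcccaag
Mrps5, chr2:127587176-127587425, plus strand: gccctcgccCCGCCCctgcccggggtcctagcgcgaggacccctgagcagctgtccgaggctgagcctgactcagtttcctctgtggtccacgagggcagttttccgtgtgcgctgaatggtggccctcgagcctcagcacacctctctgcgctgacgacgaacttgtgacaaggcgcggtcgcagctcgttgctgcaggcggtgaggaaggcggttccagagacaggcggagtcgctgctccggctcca
The Mrps6 stretch holds 4 matches to GGGCGG, 2 of them overlapping, and none to the other motifs. The Mrpl52 stretch holds 1 match to CCGGAAG and 1 to AAGATGG. The Mrps25 stretch holds none of the 4 motifs and that of Mrps5 holds 1 match to GGGCGG.

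Among the 67 members with an entry (73 promoters), matches to several of these motifs were more frequent than over all 32851 promoters of the table. CCGGAAG stood in 23.3% of member promoters and 6.91% of all. GCATGCG stood in 11.0% and 3.02%, GGGCGG in 50.7% and 32.7%, and AAGATGG in 8.22% and 4.49%. The form GCATGCG was chosen after the counts of a longer form had been seen, so its shares are a description only. The E-box CACGTG, bound by MYC among others, stood in 9.59% and 6.02%, CCAAT in 37.0% and 33.8%, and TATAAA in 6.85% and 12.4%. Median base composition differed as well, with 58.4% G and C in member promoters and 52.4% in all, and its part in these shares was not tested. The 17 members with CCGGAAG had a median log2 ratio of −0.04 and the 50 without it −0.02. For GCATGCG the medians were −0.10 (8 with) and −0.02 (59 without), for AAGATGG 0.07 (6 with) and −0.03 (61 without), for GGGCGG 0.002 (33 with) and −0.05 (34 without), and for CACGTG −0.03 (5 with) and −0.02 (62 without). Mrpl13, Mrpl15, Mrpl19, Mrpl38, Mrpl4, Mrpl54, Mrps28, Mrps34 and Mrps35 had no entry in the table.

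The large subunit joins amino acids into protein, and the small subunit reads the messenger. They had nearly the same median: −0.03 over 49 large subunit genes (1 at least 2-fold higher, none lower) and −0.01 over 26 small subunit genes (1 higher, none lower). Mrps18a and Mrps30, whose proteins sit in the large subunit despite their names, are counted there. Mrps36, whose product has since been assigned to the oxoglutarate dehydrogenase complex, is in neither count, and its signals were 840.2 and 819.6. The medians of bacterial homologs and mitochondria-specific proteins were also close to 0. Mrps18a and Mrps18b are relatives of the bacterial S18 gene but were counted with the mitochondria-specific proteins. The split therefore does not strictly follow descent. In the large subunit the median was −0.02 over 29 bacterial homologs (none past 2-fold) and −0.04 over 20 mitochondria-specific proteins (1 higher). In the small subunit it was −0.0008 over 16 bacterial homologs (1 higher) and −0.05 over 10 mitochondria-specific proteins (none past 2-fold).

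The structural regions of the large subunit were small groups. The stalk recruits translation factors, and the median of its 4 measured genes was 0.12. Mrpl12, the stalk protein homologous to bacterial L7/L12, had signals of 9212 and 9601. Mrpl54, placed beside the stalk, went from 760.05 to 1226, 1.61-fold higher. The central protuberance, the crown of the large subunit that faces the small subunit, had a median of 0.12 over 8 genes and held both ends of the large subunit's range, Mrpl52 at 1.17 and Mrpl38 at −0.87. The 6 genes around the tunnel through which the new protein leaves had a median of −0.26, from −0.49 for Mrpl24 to 0.18 for Mrpl17, none past 1.5-fold. Mrpl24 had signals of 4263 and 3029, and Mrpl17 had 5291 and 5995.

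Mrps6, the homolog of bacterial S6 in the platform of the small subunit, was the member that differed most. Its main probe set (1447585_s_at) had a signal of 675.1 at day 0 and 2193 at day 3, 3.25-fold higher. Its other probe set (1424440_at) had 636.0 and 1227, 1.93-fold higher. Both probe sets thus stood higher at day 3, and they began from nearly the same signal. In the RefSeq annotation the gene overlaps Slc5a3, which encodes the sodium-dependent myo-inositol transporter, and their annotated starts lie 14 bases apart on the same strand. Slc5a3 went from 634.3 to 1326 on its main probe set, 2.09-fold higher, and from 147.5 to 87.1 on another, and its remaining probe set, at 35.5 and 3.54, was under the floor. Whether transcripts of both genes reach the probe sets of Mrps6 was not tested.

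Mrpl52 lies in the central protuberance. Its main probe set (1460701_a_at) went from 3265 to 7356, 2.25-fold higher. The other probe sets above the floor went from 2174 to 2889 (log2 ratio 0.41) and from 2388 to 3250 (0.44), so all 3 stood higher at day 3, but the 2-fold count rests on the main probe set. A probe set under the floor on both arrays had 51.5 and 15.4.

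Below these came 4 members past 1.5-fold on their main probe set. Mrps23, of the small subunit, went from 580.35 to 966.6 (log2 ratio 0.74). Its other probe sets had 509.4 and 547.7, and 133.1 and 120.4, so they did not share the difference. Mrpl19, homologous to bacterial L19 at the interface of the subunits, went from 551.8 to 904.6 (0.71), and its other probe sets had log2 ratios of 0.65 and −0.11. Mrps25, of the small subunit, went from 1069 to 1734 (0.70) on its main probe set and from 68.4, just above the floor, to 177.0 on another, 2.59-fold higher. Mrpl54 (0.69), given above, was the last of these.

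The lower end held 4 members past 1.5-fold and none at 2-fold. Mrpl38, a protein of the central protuberance, went from 1614 to 880.9, 1.83-fold lower. Its other probe sets were dim, went 155.5 to 109.8 and 73.2 to 132.9, and so differed in direction. Mrpl2, the homolog of bacterial L2 near the peptidyl transferase centre, went from 3298 to 1885 on its only probe set, 1.75-fold lower. Mrpl36, the homolog of bacterial L36, went from 1659 to 1038, 1.60-fold lower, also on its only probe set. Mrps5, the homolog of bacterial S5, went from 1698 to 1092, 1.55-fold lower. Its other probe sets that cleared the floor at both days were lower too, at 480.7 and 218.3 (2.20-fold), 329.5 and 250.3, and 108.5 and 71.1, and a further probe set went from 100.9 to 10.9, under the floor. Mrps5 was thus lower on all 5 probe sets above the floor on an array.

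**Figure D3:**
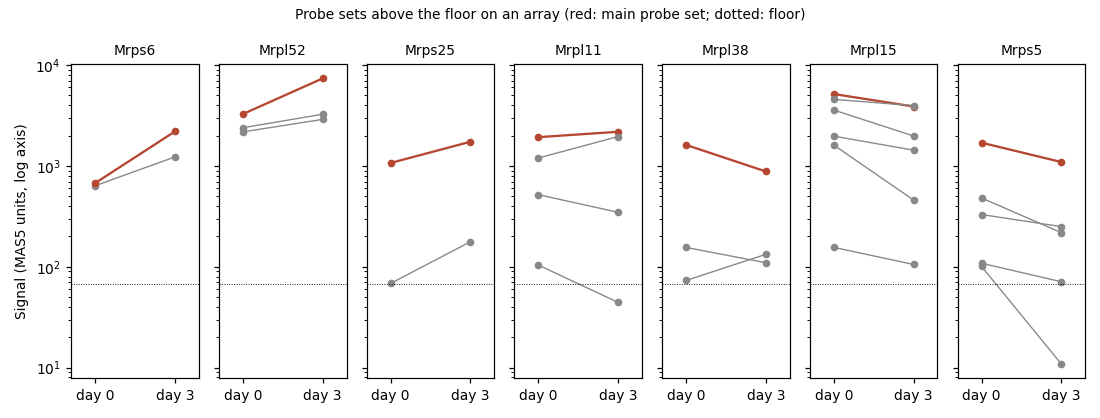
Signal (MAS5 units, log axis) at day 0 and day 3 of every probe set above the floor on an array, for the members with a probe set past 2-fold or with probe sets over 1 apart in log2 ratio. Each line is 1 probe set on 1 array per day, red marks the main probe set and the dotted line is the floor of 68.3; all lines slope up for Mrps6, Mrpl52 and Mrps25 and all slope down for Mrpl15 and Mrps5, while those of Mrpl11 and Mrpl38 cross or part.

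Probe sets of the same gene disagreed most for Mrpl38, Mrpl15 and Mrpl11. Mrpl15, homologous to bacterial L15, had signals of 5156 and 3878 on its main probe set (log2 ratio −0.41). The other 5 above the floor had log2 ratios from −1.81 to −0.20, and the lowest of these went from 1608 to 459.3, 3.50-fold lower. All 6 stood lower at day 3, but by very different amounts. Mrpl11, the stalk-base homolog of bacterial L11, had 1926 and 2178 on its main probe set (0.18), with others at 0.71 and −0.58 and a further 1 that went from 104.0 to under the floor. Its direction therefore depends on the probe set.

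The Mrps18 genes are 3 relatives of the bacterial S18 gene whose products sit at different places in the ribosome. Mrps18a, in the large subunit, went from 2932 to 2052 (log2 ratio −0.51). Mrps18b, in the small subunit, went from 3004 to 2352 (−0.35). Mrps18c, which takes the place of bacterial S18, went from 3394 to 3763 (0.15). None was past 1.5-fold, and each had 1 probe set.

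Of the remaining members named by a fixed rule, Mrps12, which lies at the decoding centre, had 3520 and 3730, and Mrps9 had 772.5 and 810.2. Mrpl39 had 9439 and 7560, Mrpl51 6943 and 7417, Mrpl27 6063 and 5013, Mrpl33 616.5 and 533.8, and Mrps27 563.8 and 548.6. Mrps35 had 1644 and 1164, at a log2 ratio of −0.50. All of these were under 1.5-fold.

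Some members share their start region with another gene, so that a pair is read in opposite directions. The share of all genes with such a neighbour is not given here, so the count below cannot be read as particular to the members. In the promoter table, 26 members had a start within 1000 bases of that of a gene on the opposite strand that was also analysed, in 25 pairs. In 1 of them both genes were members, Mrps11 with 1436 and 1375 and Mrpl46 with 1327 and 1776. No member of these pairs was past 2-fold, while 3 of the neighbours were at least 2-fold higher and 1 lower. These are 12% and 4% of the pairs, near the 12.9% and 5.62% of all genes. The neighbours' log2 ratios had an SD of 0.923, near the 0.893 of all genes, and those of the members of the pairs 0.345. Across the pairs the log2 ratios had a Pearson correlation of 0.275 and 16 of 25 shared their sign, as a description over genes of the same arrays.

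The neighbours past 2-fold were named after their values were seen. Eme1, a subunit of a DNA repair endonuclease, starts 48 bases from Mrpl27 and went from 25.1, under the floor, to 276.5, at least 4.05-fold higher, while Mrpl27 was 1.21-fold lower. Ncapd2, a condensin subunit, starts 614 bases from Mrpl51 and went from 98.9 to 517.5, 5.23-fold higher, while Mrpl51 was 1.07-fold higher. Its other probe set had 36.9 and 84.6. Ska3, of the complex that ties kinetochores to spindle microtubules, starts 76 bases from Mrpl57 and went from 4.46, under the floor, to 142.5, at least 2.09-fold higher, while Mrpl57 was 1.33-fold higher. The lower neighbour was the clone gene 2610507I01Rik, 55 bases from Mrpl55, which went from 450.9 to 85.7 while Mrpl55 had 1549 and 1185. Klc4, a kinesin light chain gene whose start lies 141 bases from that of Mrpl2, went from 2313 to 1410 on its main probe set, under 2-fold. Another probe set of Klc4 went from 236.8 to 104.8, 2.26-fold lower. Mrpl2 had 3298 and 1885.

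The other parts of the mitochondrial translation system had medians near that of the members, while their shares past 1.5-fold differed between lists. Of 6 mitochondrial ribosomal proteins listed under other names, 5 were measured and none was past 1.5-fold (median −0.06). Mrpl58, once named Ict1, a peptide release factor built into the large subunit, is also a member and had 2841 and 2334. Gadd45gip1 had 1444 and 1216, and Ptcd3, at the entry of the messenger, 1517 and 1450. Of 26 genes for assembly of the ribosome and modification of its RNA, none was past 2-fold (median 0.01, mean −0.04). At 1.5-fold, 2 were higher and 4 lower, or 7.69% and 15.4%, where 24.0% and 14.2% of all genes passed. Tfb1m, a dimethyltransferase of the small ribosomal RNA, went from 736.7 to 1236, 1.68-fold higher, with 1.34 as the log2 ratio of its other probe set. Mettl15, a methyltransferase of the same RNA, went from 363.7 to 570.5, and the helicase gene Ddx28 from 275.1 to 406.0. On the lower side, named after their values were seen, Mterf4, which works with a methyltransferase of the ribosomal RNA, went from 560.3 to 281.7, 1.99-fold lower, and Rbfa, a maturation factor of the small subunit, from 1083 to 624.8. Mterf3 went from 1843 to 1167 and Mtg2, a GTPase of large subunit assembly, from 771.6 to 491.1.

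Of 14 measured translation factors, 1 was at least 2-fold lower and none higher (median −0.12). At 1.5-fold, 0% were higher and 21.4% lower, where 7.89% and 5.26% of the members and 24.0% and 14.2% of all genes passed. Guf1, the mitochondrial homolog of bacterial LepA, went from 148.2 to 65.4, under the floor, at least 2.17-fold lower. Oxa1l, which inserts new proteins into the inner membrane, went from 1193 to 627.1, 1.90-fold lower, with another probe set at −0.36. Gfm2, a factor of ribosome recycling, went from 1284 to 709.9. Of 21 genes that charge mitochondrial transfer RNAs, 2 were higher and 1 lower (median −0.08), and at 1.5-fold 19.0% were higher and 14.3% lower. Gatc, of the amidotransferase that makes glutaminyl-tRNA, went from 1243 to 531.6, 2.34-fold lower, while Qrsl1, the catalytic subunit of the same enzyme, went from 286.4 to 798.0, 2.79-fold higher, with another probe set at 0.02. Cars2 went from 248.7 to 599.3, with another probe set at −0.22. Nars2 went from 1046 to 530.9 and Fars2 from 1458 to 891.9, the latter with another probe set at 0.17.

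Of 12 genes of mitochondrial DNA replication and transcription, 1 was higher and 1 lower (median −0.24). Polg2, the accessory subunit of the mitochondrial DNA polymerase, went from 1094 to 475.6, 2.30-fold lower. Tfb2m, a transcription factor, went from 1330 to 763.4 and Mterf1a from 310.0 to 195.2. Mgme1, an exonuclease of mitochondrial DNA, went from 166.8 to 357.6, 2.14-fold higher. Tfam, which packages mitochondrial DNA and starts its transcription, had 2037 and 1833.

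Of the 9 regulators of mitochondrial biogenesis, 1 was higher and 1 lower at 2-fold (median −0.05). Their SD of 0.892 was close to the 0.893 of all genes. At 2-fold these are 11.1% each, where 12.9% and 5.62% of all genes passed. At 1.5-fold, 11.1% were higher and 33.3% lower, where 24.0% and 14.2% of all genes passed. A single gene makes up 11.1% of this list. Ppargc1b, a coactivator of mitochondrial genes, went from 773.4 to 224.6, 3.44-fold lower. Its relative Ppargc1a went from 287.9 to 157.1, 1.83-fold lower, and its 5 probe sets had log2 ratios from −1.06 to −0.41. Their relative Pprc1 went the other way, from 295.2 to 764.8, 2.59-fold higher. Gabpa had 1066 and 696.2 (−0.62). Nrf1 had 186.3 and 188.3 on its main probe set, and its probe sets had log2 ratios from −0.20 to 1.08. Myc had 901.8 and 871.9. The 3 coactivators of that family therefore differed in direction while the ribosomal genes stood near their day 0 signals.

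The proteins that the mitochondrial ribosome makes join nuclear-encoded subunits in the respiratory chain and ATP synthase. Genes of nuclear-encoded subunits of these complexes had a lower median ratio than the members. Their list also held complex II, which has no subunit made by the mitochondrial ribosome. Of 75 analysed respiratory chain and ATP synthase genes, 1 was higher and 1 lower at 2-fold, with a median of −0.31. At least 1.5-fold lower were 10, or 13.3%, near the 14.2% of all genes, and 1 was at least 1.5-fold higher, or 1.33%, where 24.0% of all genes were. Sdhb, the iron-sulfur subunit of complex II, went from 18294 to 8468, 2.16-fold lower, Ndufs7 of complex I from 11234 to 6093, and Atp5c1 from 16968 to 10039. Cox7a1, a subunit typical of muscle, went from 51.4, under the floor, to 174.1. The distance between the lists depended on the scaling. After loess the medians were −0.02 for the members and −0.11 for these genes, and after quantile normalisation −0.06 and −0.13. The difference between the lists was not tested.

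Genes of the cytosolic ribosome, which makes all other proteins of the cell, were also close to their day 0 signals. Of 46 analysed, 2 were higher and none lower (median 0.02, and 0.23 after loess). Rpl12 went from 91.3 to 368.9, Rps4l from 353.5 to 1212 and Rps25 from 288.8 to 508.4. Probe sets with several symbols were not used, so part of this family was not analysed here.

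**Figure D4:**
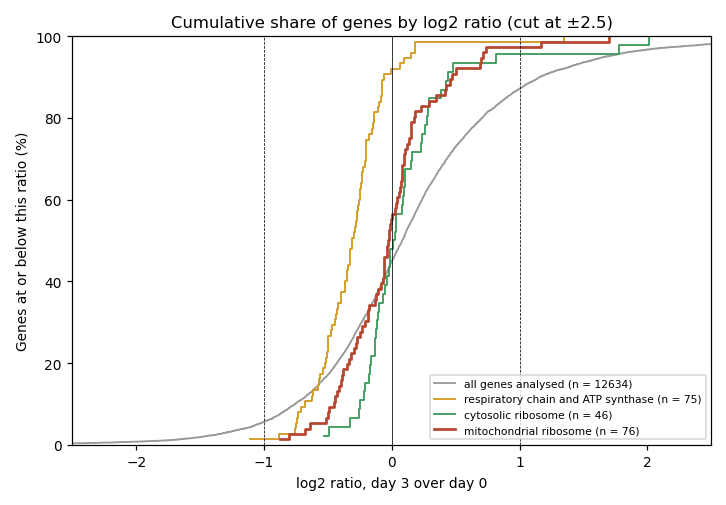
Share of genes (percent, vertical) at or below each log2 ratio of day 3 over day 0 (horizontal) for the 76 mitochondrial ribosome genes, 46 cytosolic ribosome genes, 75 respiratory chain and ATP synthase genes and all 12634 genes. The curve of the mitochondrial ribosome is steep around 0 beside the flat curve of all genes, and that of the respiratory chain lies to its left with a median of −0.31.

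Scaling moved the medians by different amounts. With the arrays scaled to the hybridisation spikes, RNAs added after labelling, the median of all genes went from 0.08 to 0.36 and that of the members from −0.03 to 0.27. Relative to all genes, the members' median was −0.11 as deposited and −0.10 with the spikes. Genes in the members' signal range, the closer background, had a median of 0.03 as deposited, nearer to that of the members. Their median under the other scalings is not given here. Loess moved the respiratory chain from −0.31 to −0.11 and the cytosolic ribosome from 0.02 to 0.23, and left the members at −0.02. The sign of the members' median thus depends on the scaling, and the median was below that of all genes in all 11 alternative settings.

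**Figure D5:**
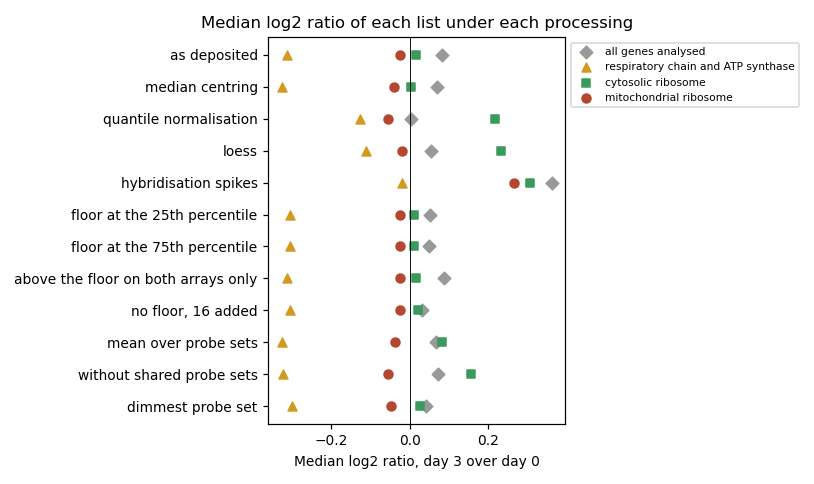
Median log2 ratio, day 3 over day 0, of 4 lists (horizontal) under the deposited scaling and 11 alternatives (vertical). Each mark is the median of 1 list, with no error since there was 1 array per day; the members' mark lies left of that of all genes in every row and is above 0 with the hybridisation spikes only.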

How the data were processed

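Total RNA of whole liver was measured on an Affymetrix mouse array, 1 array at day 0 and 1 at day 3. Per the submitters' processing notes, GCOS and MAS5 made the deposited values, which hold 1 linear intensity per probe set; versions and the scaling target: not given in the sources used here. MAS5 subtracts mismatch probes, which makes low signals noisy. Depth is not defined for arrays, so their number limits the precision.

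Gene symbols came from the supplied array annotation; all 156 member probe sets matched RefSeq by Entrez ID. Probe sets with several symbols (932) or no entry (9160) and 64 control probe sets were left out. Signals were floored at 68.3, log2 ratios taken, and each gene read from its probe set of highest mean log2 signal. A difference counted at 2-fold, with no p-value. Promoters came from RefSeq, GRCm38.p6; the values name no build. The steps were tested on simulated data. Python 3.11.15, numpy 2.4.6, pandas 2.3.3 and statsmodels 0.14.6 were used.

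The members and lists were chosen with earlier results of these data known. Members named were those with a probe set past 2-fold, the 6 highest and 6 lowest ratios, 5 each at the ends of the signal range, those with probe sets over 1 apart in log2 ratio, and Mrps18a to Mrps18c, Mrpl12 and Mrps12. Other lists gave up to 3 genes in the direction of their median, up to 2 at 2-fold the other way, and Ppargc1a, Tfam, Myc, Nrf1 and Gabpa. Further members, the neighbouring genes and the lower assembly genes were named after their values were seen. The NRF1 motif was shortened from a longer form after the counts of that form had been seen. Alternatives were 4 scalings, 4 floors, 3 rules for probe sets and 2 thresholds.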

Additional observations from a re-analysis of the deposited data

How the results depend on the processing

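The number of members at least 2-fold higher, 2 as deposited, was 4 with the hybridisation spikes (with Mrpl19 and Mrps23), 1 with the dimmest probe set of each gene (Mrps25, neither of the deposited 2) and 0 without probe sets marked as shared, which left 61 members. With the mean over probe sets it was 2, Mrps25 and Mrps6. At 1.5-fold it was 6, and at 4-fold 0. The number at least 2-fold lower was 0 in all 11 alternative settings and at 4-fold, and 4 at 1.5-fold. The members' median log2 ratio ranged from −0.06 to 0.27, and relative to all genes from −0.13 to −0.06. Relative to all genes the large subunit ranged from −0.14 to −0.06 and the small subunit from −0.11 to −0.004. A move under 0.435, the SD between probe sets of a gene, was taken as no change, since samples had no spread. Of 272 values of the 25 named members under alternatives, 16 moved by more, all of them where the choice of probe set was changed. Many of the 272 could not move by that much. Main probe sets lay above the higher and lower floors too, so these floors left them as they were. Median centring and the spikes shift all members by the same amount, which was under 0.435. Members with 1 probe set have no other to choose. The count therefore does not measure how stable the values are. Mrpl52 was at 0.68 with the mean over probe sets and 0.41 without shared probe sets, Mrps6 at 0.95 without them, Mrps23 at 0.23 with the mean, and Mrpl38 at −0.17 with the mean and 0.86 with the dimmest. No paired analysis was possible because there was 1 array per day. MAS5 signals near the floor limit what the dim probe sets can show.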
